A study of Oncorhynchus mykiss with 24 samples.

Results

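The high diindolylmethane diet held 1500 ppm of DIM, read here as 3,3'-diindolylmethane, and its liver RNA was set against RNA of vehicle-fed fish on the same arrays. The experiment comprises the arrays titled Hi DIM, 4 of the 24 arrays of the series: 2 treated RNA samples, each hybridised once with the treated RNA in Cy3 and once with it in Cy5. Values are described over all 4368 features, a feature being a pair of adjacent spots that was averaged. All fish were rainbow trout (Oncorhynchus mykiss, Mt. Shasta strain) of 12 to 18 months, kept in 2 tanks of 6 fish per treatment on a casein-based diet, fed the test diet for 12 days and sampled on day 13. The diets used for comparison held DIM at 500 ppm, I3C (indole-3-carbinol) at 1500 ppm or E2 (17β-estradiol) at 5 ppm, and the spread between samples also drew on I3C at 500 ppm and BNF (β-naphthoflavone) at 500 ppm. Every diet had 2 RNA samples, and every array carried the same reference, an equal-mass pool of liver RNA from 12 fish fed 0.15% dimethyl sulfoxide. How many fish contributed to a treated RNA sample is not in the labels. The p-values therefore cover only the spread between these RNA samples, which may be technical.

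DIM is the dimer that forms from I3C, an indole of cruciferous vegetables, under the acid conditions of the stomach. In trout, dietary indoles are known both as ligands of the aryl hydrocarbon receptor, which turns on cytochrome P450 1A genes, and as compounds with estrogen-like effects in liver, where estrogen receptors turn on genes of egg yolk protein precursors. I3C is also known to promote liver tumors in trout, and the series title places these agents among tumor promoters.

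The deposited values are ratios of the 2 dyes, so they hold no level of any gene: tissue markers such as those of hepatocytes could be read as changes only, and their presence could not be checked. The reference annotation named 49 of the 4368 features (32 symbols). No member of the lists fixed for estrogen response or for immune cells was among the named features, and no sequence of any feature was available here. Higher and lower are given in an assumed direction, which takes the ratio as Cy3 over Cy5, Cy3 being channel 1 on every array. No label states the numerator, and higher and lower would change places throughout if it was Cy5. The dye component, the mean of a sample's dye-swapped arrays, correlated negatively with that of other samples in E2 replicate 1 (r of -0.80) and in DIM 500 ppm replicate 1 (-0.74), and the arrays of these samples were turned. The DIM 1500 ppm samples were at 0.86 and 0.88 and were used as deposited. Within their 4 arrays the adjacent spots of a pair correlated at 0.85 to 0.92.

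The comparison with the vehicle pool asked how the liver transcript profile changed on the high DIM diet. limma called 431 of 4368 features (9.87%) at a Benjamini-Hochberg adjusted p under 0.05, of which 205 were higher (4.69%) and 226 lower (5.17%). The median log2 ratio was 0.88 for the features called higher and -0.93 for those called lower, against 0.013 over all features tested. The smallest called changes were 0.47 and -0.48, while the largest were 5.17 and -3.36. Among the called features, 85 of those higher and 102 of those lower had a log2 ratio of at least 1 in size. A size of at least 2 was reached by 13 higher and 19 lower features. Those 32 features had the same sign on all 4 arrays, and no single sample among them was closer to 0 than 1.81. The cut on the mean of these same arrays favours both properties. Called features lay in all 48 print blocks of the array, with 3 to 18 of the 91 features of a block. In whole liver, fewer cells of a type and less RNA per cell cannot be told apart.

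Both RNA samples gave the same sign for every one of the 431 called features, a property that the call itself favours. A sign shared by all 4 arrays was found in 152 of the 205 features called higher and in 194 of the 226 called lower. Over all 4368 features it was found in 559 (12.8%), and the call favours this property too. In 14 higher and 8 lower features, only 2 arrays or fewer carried the sign of the mean. The 2 samples of a called feature differed by a median of 0.24 on the log2 scale, and by over 1 in 5 features. Replicate 1 had the larger change in size in 197 of the 431 called features (45.7%).

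**Figure D1:**
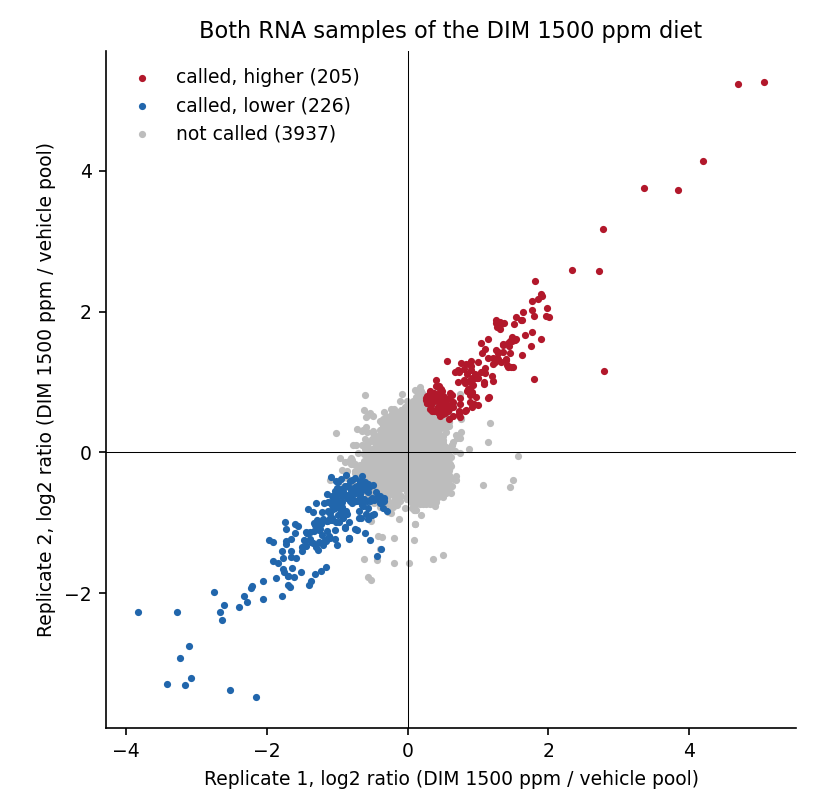
Each point is 1 of 4368 features, with its log2 ratio (DIM 1500 ppm over vehicle pool, dye swap averaged) in replicate 1 on the x axis and in replicate 2 on the y axis, coloured by the limma call. The 205 features called higher and 226 called lower lie along the diagonal, while the features not called form a cloud around 0 whose replicates often have opposite signs.

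Over all 4368 features the 2 samples correlated at 0.57, and 1716 (39.3%) had the same sign in both. Of the 3937 features not called, 1285 (32.6%) had the same sign, with a correlation of -0.18, against 0.97 over the called ones. The call is made from these same ratios, so it favours agreement among called features and disagreement among the rest. Values split by the call therefore describe the 2 parts and test nothing. Ratios over all features correlated with the dye component, averaged over the 12 samples, at -0.29 in replicate 1 and 0.40 in replicate 2. Samples of other diets showed such a relation too. It was -0.61 in BNF replicate 2, -0.59 in I3C 500 ppm replicate 2 and 0.27 and -0.28 in E2 replicates 1 and 2. The smallest in size was -0.050, in I3C 1500 ppm replicate 2. Over the features not called, the ratios of DIM 1500 ppm replicate 1 correlated with the dye component at -0.52 and those of replicate 2 at 0.65. The relation thus had opposite signs in the 2 DIM 1500 ppm samples. Over the called features the same correlations were -0.026 and 0.066. After each array was regressed on the dye component, the features not called correlated at 0.25 between the samples and 53.1% of them shared a sign. These correlations run across features of the same arrays, and features are not independent replicates. With that regression, an alternative chosen after seeing the data, limma called 555 features, 427 of the 431 among them.

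The called features were not spread evenly along the dye component. Features with a dye component above 0 made up 54.3% of the array and held 390 of the 431 called features, so that 16.4% of them were called, against 2.05% of the 1997 features at or below 0. Of the named features, 26 lay above 0 and 23 at or below it. The part of the dye component in the calls was not tested.

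**Figure D2:**
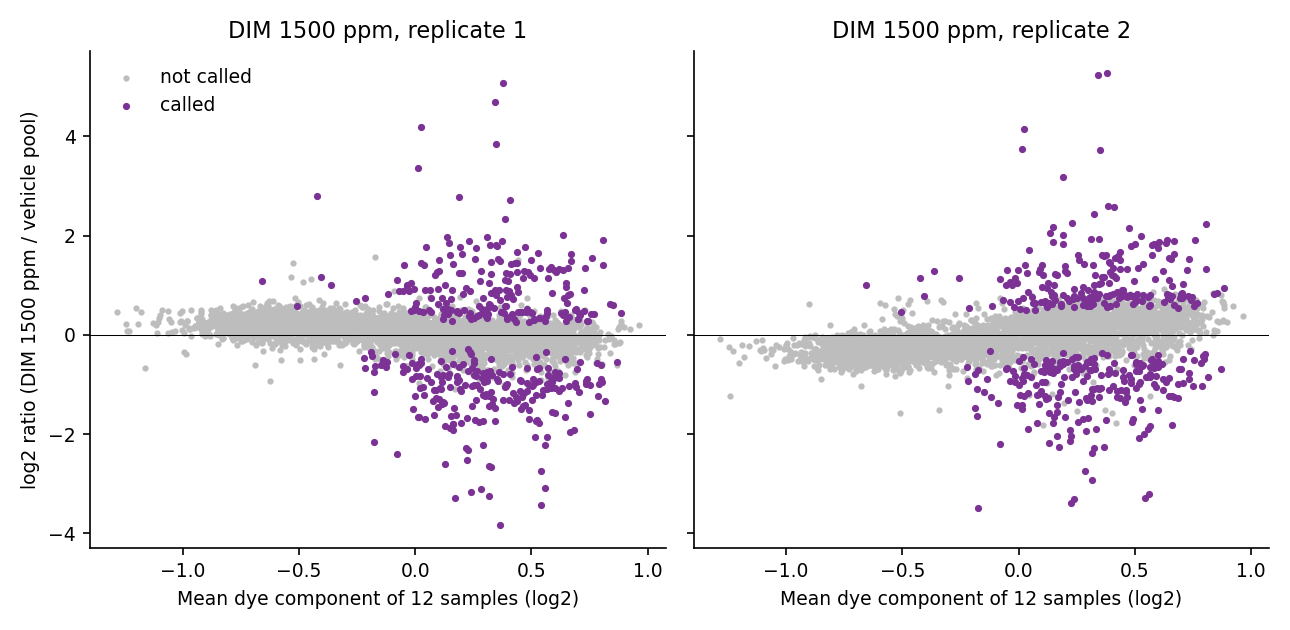
The log2 ratio of each feature (DIM 1500 ppm over vehicle pool) is plotted against its mean dye component over 12 samples, a log2 value, for replicate 1 on the left and replicate 2 on the right. Features not called slope down in replicate 1 and up in replicate 2 (r of -0.52 and 0.65), and 390 of the 431 called features lie at a dye component above 0.

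The features with the largest changes have no gene name here. The 4 features given were picked among those with 1 sign on all 4 arrays. Their agreement in sign was therefore fixed by that choice. Spots 10020301 and 10020302 had log2 ratios of 5.31 and 4.82 in replicate 1 (DIM RNA in Cy3 and in Cy5) and of 5.71 and 4.83 in replicate 2. All 4 arrays lay within 1 of each other on the log2 scale, and the mean of 5.17 ± 0.18 (SE, n = 2 samples, limma adjusted p = 9.84e-11) is a 36.0-fold ratio if the deposited logs are to base 2. Spots 12020713 and 12020714 had 4.85 and 4.53 in replicate 1 and 5.48 and 5.00 in replicate 2, with a mean of 4.96 ± 0.16 (limma adjusted p = 3.82e-11). Among the lowered features, spots 7040405 and 7040406 had -2.89 and -3.95 in replicate 1 and -2.63 and -3.95 in replicate 2, with a mean of -3.36 ± 0.15 (limma adjusted p = 2.13e-09). In this feature the arrays with DIM RNA in Cy5 were the lower ones in both samples, and no array came near 0. Spots 4020405 and 4020406 had -2.95 and -3.39 in replicate 1 and -3.15 and -3.47 in replicate 2, with a mean of -3.24 ± 0.15 (limma adjusted p = 2.13e-09).

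Of the 49 named features, 12 were called, 3 higher and 9 lower (6.12% and 18.4%, against 4.69% and 5.17% of all features). The named set is small and repeats some genes and cDNA clones, so these shares describe it and no more. The 37 named features not called ran from -0.43 to 0.37, with a median of 0.037.

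Among secreted liver proteins, all 3 measured features, from 2 cDNAs of 2 genes, were called lower, against 5.17% of all features. Their median log2 ratio was -0.67 against 0.013 over all features. antiprot1, listed with the plasma protease inhibitors, had log2 ratios of -0.64 and -1.56 in replicate 1 (DIM RNA in Cy3 and in Cy5) and of -0.71 and -1.16 in replicate 2. All 4 arrays were below 0, and the mean was -1.02 ± 0.17 (SE, n = 2, limma adjusted p = 0.000605). ambp encodes the precursor of a plasma lipocalin and of the protease inhibitor bikunin. One of its features had -0.24 and -1.33 in replicate 1 and -0.14 and -0.98 in replicate 2, with a mean of -0.67 ± 0.15 (limma adjusted p = 0.00894). The other, spotted elsewhere with cDNA of the same accession, averaged -0.58 ± 0.15 (limma adjusted p = 0.0243), and its array of replicate 2 with DIM RNA in Cy3 stood at 0.12. Both copies were clearly below 0 where DIM RNA was in Cy5 and near 0 where it was in Cy3.

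For extracellular matrix, 1 of 3 features was called lower, against 5.17% of all features, and the median was 0.0055. col1a2, a chain of type I collagen, had -0.79 and -1.65 in replicate 1 (DIM RNA in Cy3 and in Cy5) and -0.014 and -1.67 in replicate 2, with a mean of -1.03 ± 0.15 (limma adjusted p = 0.000256). The sparc features, for a collagen-binding matrix protein, stood at 0.037 and 0.0055 and were not called.

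Of the cytosolic chaperones, 2 of 5 features were called lower, against 5.17% of all features, with a median of -0.096 over the 5. Both belong to hsp90ab1, the constitutive cytosolic HSP90, and to a single cDNA accession spotted in 2 places. The feature at spots 6040611 and 6040612 had -0.070 and -1.78 in replicate 1 and 0.043 and -1.15 in replicate 2, with a mean of -0.74 ± 0.15 (limma adjusted p = 0.00396). Its copy at spots 6040209 and 6040210 averaged -0.62 ± 0.16 (limma adjusted p = 0.0188). In both copies the arrays with DIM RNA in Cy5 were below -1 and those in Cy3 lay nearer to 0. Another hsp90ab1 feature, from a different cDNA, stood at 0.037, and the hspa8 features, for the constitutive HSC70, at -0.096 and 0.010, none of them called. Averaged over its 3 features, hsp90ab1 stood at -0.44 (limma adjusted p = 0.0488).

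Among lipid genes, fd6d, a fatty acid desaturase of polyunsaturated fatty acid synthesis, was higher. It had 0.60 and 0.42 in replicate 1 (DIM RNA in Cy3 and in Cy5) and 0.86 and 0.63 in replicate 2, all 4 above 0, with a mean of 0.63 ± 0.17 (limma adjusted p = 0.0287). pparg, a nuclear receptor of lipid storage, stood at -0.43 ± 0.21 and was not called (limma adjusted p = 0.319). The translation list held 1 feature, rps7, a protein of the small ribosomal subunit. It had 0.78 and 0.88 in replicate 1 and 1.44 and -0.25 in replicate 2, with a mean of 0.71 ± 0.14 (limma adjusted p = 0.00317). The array of replicate 2 with DIM RNA in Cy5 thus went against the other 3.

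Antioxidant defence was represented by sod1, the cytosolic copper-zinc superoxide dismutase, whose symbol covers 2 Entrez genes on this array. The feature at spots 4020201 and 4020202 had -0.11 and -0.88 in replicate 1 and -0.11 and -0.83 in replicate 2, with a mean of -0.48 ± 0.13 (limma adjusted p = 0.0303). The feature of the other sod1 gene stood at -0.13 and was not called, with 0.24 in replicate 1 and -0.51 in replicate 2. Of the red cell genes, LOC100135826, whose synonym CA2 is that of a carbonic anhydrase, averaged -0.51 ± 0.14 (limma adjusted p = 0.0315). Its arrays stood at 0.13 and -1.36 in replicate 1 and at 0.40 and -1.23 in replicate 2, so that the sign followed the dye in both samples. LOC100136291, listed with the globin synonym hbb4, stood at 0.085 and was not called. Its arrays were at 0.38 and -0.063 in replicate 1 and at 0.54 and -0.51 in replicate 2, so that its sign followed the dye as well. The difference between these genes was not tested.

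The xenobiotic list held cyp1a3, a cytochrome P450 gene that aryl hydrocarbon receptor ligands are known to induce. Its feature had -0.72 and 1.39 in replicate 1 and -0.89 and 0.77 in replicate 2 (DIM RNA in Cy3 and in Cy5), so that the dyes disagreed by more than the samples. The mean of 0.14 ± 0.175 was not called (limma adjusted p = 0.948), and its 95% interval ran from -0.24 to 0.51. In replicate 2 alone the value was -0.063. In BNF-fed fish the feature averaged 0.098, with 0.16 and 0.030 in the 2 samples. It averaged 0.057 in E2, 0.20 in I3C 1500 ppm, 0.26 in DIM 500 ppm and 0.17 in I3C 500 ppm. Whether this feature can show an induction in these fish was not tested, so its value is no measure of the receptor's activity.

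Of the 30 named features in no list, 1 was called higher and 1 lower, against 4.69% and 5.17% of all features. LOC100136761 at spots 6030209 and 6030210 was the named feature with the largest change: 2.48 and 1.04 in replicate 1 (DIM RNA in Cy3 and in Cy5), 2.61 and 1.68 in replicate 2, and a mean of 1.95 ± 0.16 (limma adjusted p = 1.05e-06). The other features of that symbol come from different cDNAs and stood at 0.11 and 0.22, neither of them called. Averaged over its 3 features, the gene stood at 0.76. LOC100136258 had -0.80 and -0.28 in replicate 1 and -1.09 and -1.40 in replicate 2, with a mean of -0.89 ± 0.21 (limma adjusted p = 0.0125). Among the others, gs04 stood at 0.37, with 0.62 in replicate 1 and 0.11 in replicate 2. The antigen-processing genes tap1 and tapbp were at 0.022 and 0.18, and the features of stl3, a rhamnose-binding lectin, at -0.025 and 0.078. LOC100136295, measured by 5 features, ran from 0.018 to 0.20 with no call.

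**Figure D3:**
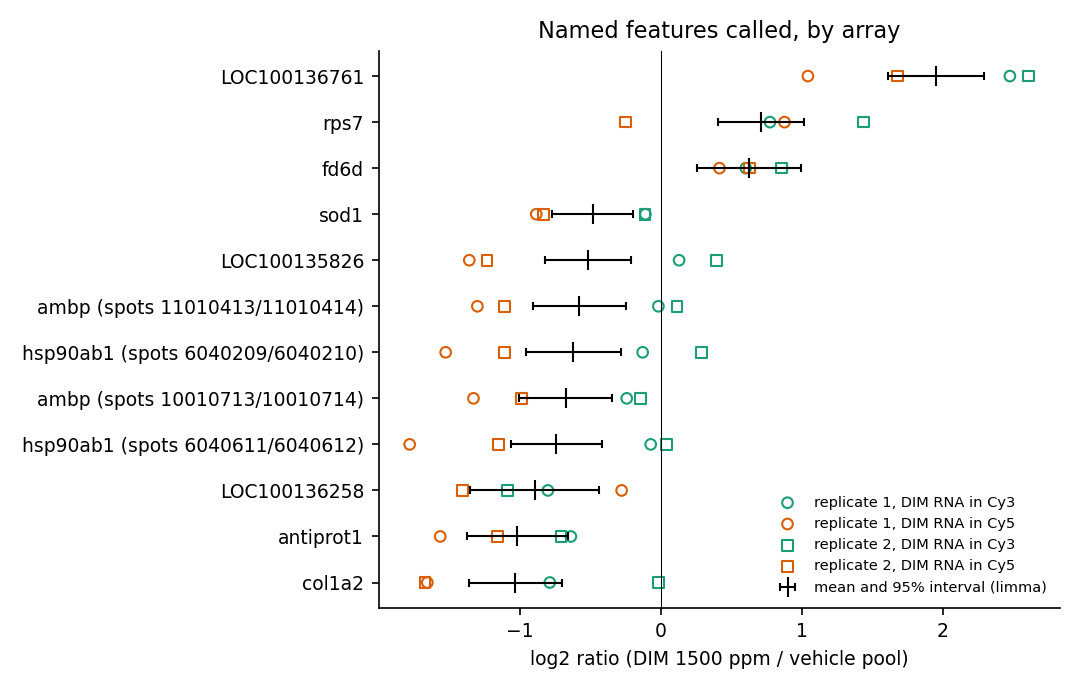
The x axis gives the log2 ratio (DIM 1500 ppm over vehicle pool) of the 12 named features that were called, with 1 symbol per array: circles for replicate 1, squares for replicate 2, green for DIM RNA in Cy3 and orange for Cy5. Black ticks and bars are the limma mean and 95% interval. LOC100136761, fd6d, sod1, LOC100136258, antiprot1, col1a2 and 1 ambp feature have all 4 arrays on 1 side of 0, whereas in LOC100135826 the sign follows the dye. A split by dye is also seen within that first set. In replicate 2, col1a2 stood at -0.014 in Cy3 and -1.67 in Cy5, and sod1 at -0.11 and -0.83.

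These calls rest on a spread pooled over 6 diets. With the signs of all arrays as deposited, the ratios of the DIM 1500 ppm samples stay as they are and only the pooled spread differs; limma then called 0 of the 4368 features (443 at an unadjusted p under 0.05). It called 389 with the turned samples left out and 319 from the DIM 1500 ppm samples alone, and, with a lone sample assumed to vary like the other groups, 340 without replicate 1 and 269 without replicate 2. antiprot1, col1a2 and LOC100136761 kept their calls under every alternative run except signs as deposited. Without replicate 1, calls were lost for rps7 (limma adjusted p = 0.0733), both hsp90ab1 features (0.109 and 0.247) and both ambp features (0.129 and 0.185). Without replicate 2, calls were lost for LOC100136258 (limma adjusted p = 0.45) and for ambp at spots 11010413 and 11010414 (0.109). fd6d (limma adjusted p = 0.0806 and 0.37), sod1 (0.132 and 0.174) and LOC100135826 (0.214 and 0.097) were lost without replicate 1 and also without replicate 2. With arrays left uncentred, calls were lost for rps7 (limma adjusted p = 0.0814), fd6d (0.183), sod1 (0.448), LOC100135826 (0.359), hsp90ab1 at spots 6040209 and 6040210 (0.162), and ambp at spots 10010713 and 10010714 (0.0924) and at spots 11010413 and 11010414 (0.226). Array quality weights and the fit of the DIM 1500 ppm samples alone each ended the same calls except that of rps7, and the weights also that of LOC100136258 (limma adjusted p = 0.105). Some calls near the threshold were lost under further settings: fd6d with single spots (limma adjusted p = 0.0756), sod1 with single spots (0.118) or without the turned samples (0.0723), LOC100135826 with single spots (0.101), scaled arrays (0.0523) or without the turned samples (0.0672), and ambp at spots 11010413 and 11010414 with scaled arrays (0.064) or centred print blocks (0.0757).

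The 2 doses of DIM were compared within 1 fit, in which the vehicle pool cancels. No feature differed at an adjusted p under 0.05 between 1500 and 500 ppm (limma, 0 of 4368, or 0%; 54 features, 1.24%, at an unadjusted p under 0.05). For 4049 features the difference had a 95% interval between -1 and 1 (log2), as it had for 401 of the 431 features called at 1500 ppm, with a median half-width of 0.51. Spots 10020301 and 10020302 averaged 5.17 at 1500 ppm and 4.93 at 500 ppm, and spots 7040405 and 7040406 averaged -3.36 and -3.53. For these, the intervals of the difference ran from -0.31 to 0.78 and from -0.29 to 0.64. col1a2 stood at -1.03 at 1500 ppm and -1.06 at 500 ppm, and antiprot1 at -1.02 and -1.01. ambp was less lowered at 1500 ppm, at -0.67 against -1.11 (spots 10010713 and 10010714) and -0.58 against -1.09 (spots 11010413 and 11010414). So were the 2 called hsp90ab1 features, from 1 cDNA, at -0.62 against -1.06 and -0.74 against -1.02. Their unadjusted intervals of the difference included 0, from -0.033 to 0.92 and from -0.18 to 0.74. The hsp90ab1 feature from another cDNA went the other way, at 0.037 against 0.16. Over the 12 named features called against the pool, differences ran from -0.0031 to 0.61. Unadjusted intervals excluded 0 in 2 of them, rps7 and ambp at spots 11010413 and 11010414 (0.051 to 0.98), and none was called. The named feature with the largest difference in size, rps7, was at 0.71 at 1500 ppm and 0.10 at 500 ppm, a difference of 0.61 ± 0.20 that was not called (limma adjusted p = 0.9998). One of the DIM 500 ppm samples is a turned one. The count was also 0 when signs were used as deposited, but limma then called 0 features in every comparison. That 0 therefore tells nothing about dose.

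DIM and I3C, the dimer and the indole it forms from, were compared at the matched dose of 1500 ppm. At an unadjusted limma p under 0.05 stood 86 features (1.97%). After adjustment limma called 1 feature (0.0229%), the unnamed spots 10031205 and 10031206. In DIM-fed fish it stood at 1.28 and 1.32, against 2.62 and 3.23 in I3C-fed fish. The difference was -1.63 ± 0.25 (n = 2 each, limma adjusted p = 0.0476), with an interval from -2.16 to -1.10. Against the pool this feature was called in DIM-fed fish at 1.30 ± 0.18 (limma adjusted p = 9.69e-05). No named feature was called (limma adjusted p = 0.999 for the smallest). LOC100136761 was at 1.95 in DIM and 1.61 in I3C, with an interval of the difference from -0.14 to 0.82. fd6d was at 0.63 and 0.17, with an interval from -0.066 to 0.97. Among the 12 named features called against the pool, rps7 differed most, at 0.71 and 0.21, with an interval from 0.075 to 0.94. This was the only 1 of the 12 unadjusted intervals that excluded 0. The unnamed spots 4020405 and 4020406, not called, averaged -3.24 and -2.55, with an interval from -1.13 to -0.24. The interval lay within 1 for 4153 of all features and for 374 of the 431. The single call was lost without each of the 4 samples in turn (limma adjusted p between 0.0542 and 0.453), with arrays scaled alike (-1.17, limma adjusted p = 0.998), after regression on the dye component (0.0549), with single spots (0.334), with array quality weights (0.315) and with signs as deposited. It was also lost with uncentred arrays (limma adjusted p = 0.0511), where the 1 feature called was another one.

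Against E2, given at 5 ppm and thus at another dose, limma called 20 features (0.458%) for DIM at 1500 ppm minus E2. Of these, 3 were higher and 17 lower (0.0687% and 0.389%). At an unadjusted limma p under 0.05 stood 214 features (4.9%). In 19 of the 20 the change against the pool was larger in size in DIM-fed fish. The 20 were picked by this difference, and no such share over all features is given here. The count therefore describes these 20 and no more. The largest lower difference lay in spots 2030307 and 2030308, with -2.29 and -2.13 in DIM-fed fish, against -0.51 and 0.22 in E2-fed fish, a difference of -2.06 ± 0.28 (n = 2 each, limma adjusted p = 0.00504). The largest higher one lay in spots 12010201 and 12010202, with 1.14 and 1.61 in DIM-fed fish and 0.10 and -0.22 in E2-fed fish, a difference of 1.44 ± 0.22 (limma adjusted p = 0.00645). The lowered spots 4020405 and 4020406 averaged -3.24 in DIM-fed and -1.49 in E2-fed fish, a difference of -1.75 ± 0.21 (limma adjusted p = 0.00265). Spots 7040405 and 7040406, at -3.36 and -1.88, were also called, with a difference of -1.48 ± 0.22 (limma adjusted p = 0.00536). By contrast, spots 10020301 and 10020302 averaged 5.17 in DIM-fed and 5.09 in E2-fed fish, with an interval of the difference from -0.47 to 0.63. No named feature was called: rps7 stood at 0.71 in DIM and -0.039 in E2 (limma adjusted p = 0.256), antiprot1 at -1.02 and -0.25 (0.446), and hsp90ab1 at -0.74 and -0.77 (0.999). Uncentred values gave 10 higher and 4 lower features in place of 3 and 17. The count was 0 with signs as deposited, 0 without E2 replicate 2, 31 without E2 replicate 1 (the turned sample), and 7 and 9 without DIM 1500 ppm replicate 1 or 2. These counts need not hold the features described: spots 12010201 and 12010202 lost their call with centred print blocks (limma adjusted p = 0.109), scaled arrays (0.0717), array quality weights (0.0653), and without DIM 1500 ppm replicate 2 (0.0909) or E2 replicate 2 (0.0777). Spots 2030307 and 2030308 lost theirs with scaled arrays (limma adjusted p = 0.393), array quality weights (0.0653), and without DIM 1500 ppm replicate 1 (0.0574) or E2 replicate 2 (0.0579). Both also lost it with signs as deposited (limma adjusted p = 0.628).

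Over these 3 differences together, with p-values adjusted over all of them at once, limma called 1 feature against I3C, 0 against DIM at 500 ppm and 13 against E2.

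**Figure D4:**
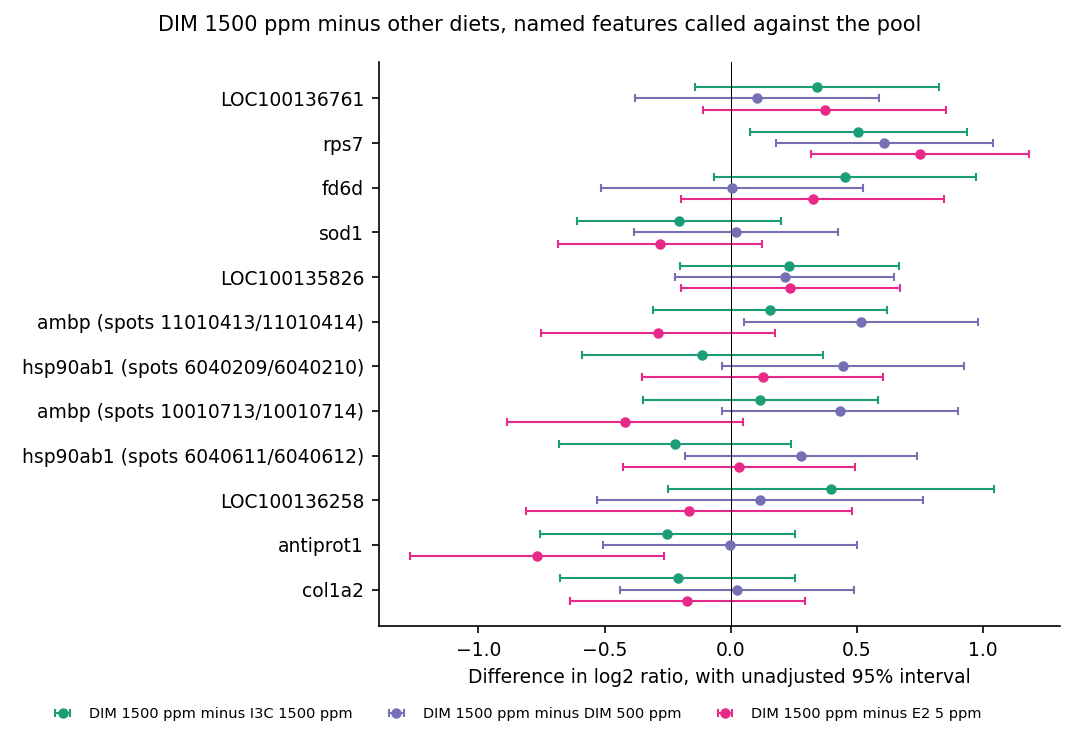
For the 12 named features called against the pool, points give the difference in log2 ratio for DIM 1500 ppm minus I3C 1500 ppm (green), minus DIM 500 ppm (violet) and minus E2 5 ppm (pink), with unadjusted 95% intervals from limma. None of the differences passed the adjusted threshold, and the means run from -0.77 (antiprot1, minus E2) to 0.75 (rps7, minus E2).

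**Figure D5:**
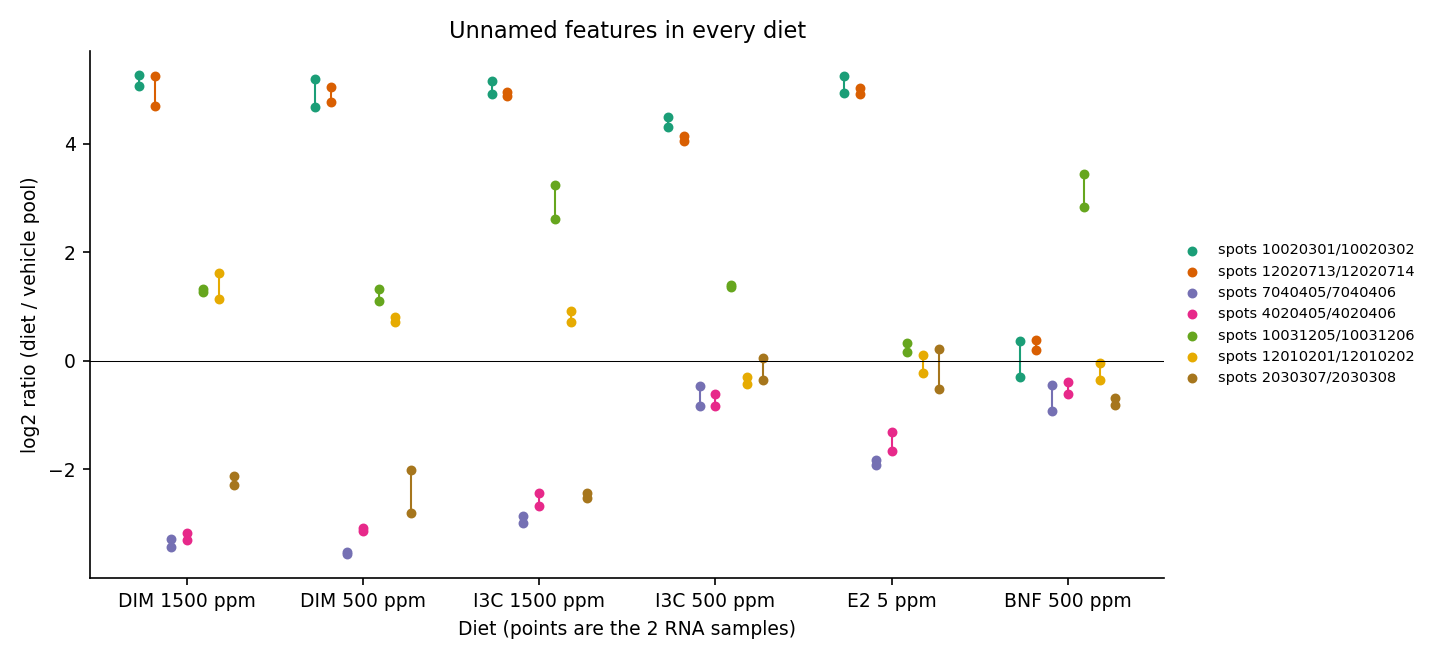
The y axis gives the log2 ratio of each diet over the vehicle pool for the 7 unnamed features described in the text, with the 2 RNA samples of a diet as joined points and diets along the x axis. Spots 10020301 and 10020302 stand at 5.07 and 5.27 in DIM 1500 ppm, against -0.30 and 0.37 in BNF 500 ppm, while spots 10031205 and 10031206 are higher in BNF and I3C 1500 ppm than in DIM 1500 ppm. The arrays of BNF replicate 1 (-0.30) had the lowest correlations between the spots of a pair.

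Every diet shares the pool, so values against it are given side by side. For spots 10020301 and 10020302 they were 4.93 in DIM 500 ppm, 5.04 in I3C 1500 ppm, 4.39 in I3C 500 ppm, 5.09 in E2 and 0.036 in BNF. Spots 7040405 and 7040406 averaged -3.53 in DIM 500 ppm, -2.93 in I3C 1500 ppm, -0.65 in I3C 500 ppm, -1.88 in E2 and -0.69 in BNF. Spots 10031205 and 10031206 averaged 1.21 in DIM 500 ppm, 2.93 in I3C 1500 ppm, 1.38 in I3C 500 ppm, 0.24 in E2 and 3.14 in BNF. Differences of DIM at 1500 ppm from I3C at 500 ppm and from BNF were not tested.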

How the data were processed

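On each array the authors deposited values for 8736 spots, of which 0 were missing. Scanning used ScanArray and QuantArray, per the labels. Not given in the sources used here are background correction, normalization, log base and numerator. From the values, 23 of the 24 deposited columns are log ratios, taken as log2. If they were natural logs, changes would be larger than stated. The remaining deposited column, of the first BNF sample, is a linear ratio and was converted to log2. Arrays were median-centred, spot pairs averaged, and the dye swap averaged per sample. A sample whose dye component correlated below 0 with the others was turned. The fit used limma 3.58.1 (R 4.3.3) with 1 mean per diet over 12 samples, a pooled spread, eBayes and Benjamini-Hochberg adjusted p-values. In simulated data it called 23.9% of log2 changes of 0.5 and 85.6% of those of 1, and 5.12% of calls were false. Those data held independent noise and 1 dye component that cancels in the swap. A dye relation that differs between samples, as seen here, was therefore not checked. Alternatives changed centring, scaling, spot averaging, dye handling, turned samples, weights, the fit and left-out samples. The ratio against 0 leaves out the spread of the pool, which counts as 1 control sample. With 2 samples, an exact two-sided sign-flip permutation test cannot go below p = 0.5. The number of arrays limits the precision.

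The experiment, its gene lists and its tests were chosen with earlier results of these data known. Named were all called features with a symbol, 1 feature of each list without a call, and unnamed features with the 2 largest changes in each direction among those with 1 sign on 4 arrays, or the largest called difference in each direction. Other named features and the values of these unnamed features in other comparisons were added after their values were seen. RefSeq's annotation of USDA_OmykA_1.1 held 27 of the 33 Entrez genes; no coordinates are given, since the array's files name no build.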

Additional observations from a re-analysis of the deposited data

Results flagged for a closer look

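Effects against the pool differed between diets, by limma's test of the difference, in the following cases. DIM at 1500 ppm minus I3C at 1500 ppm was called in 1 feature, the unnamed spots 10031205 and 10031206, at -1.63. This call was kept in 7 of the 17 alternatives run. DIM at 1500 ppm minus E2 was called in 20 features, with the largest differences at 1.44 for spots 12010201 and 12010202 and at -2.06 for spots 2030307 and 2030308. The 20 became 0 with arrays scaled alike, and these 2 calls were kept in 11 and 12 of 17 alternatives. Groups of 2 samples are too small to test a single sample as standing apart.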

How the results depend on the processing

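Against the pool, the called count stayed within 1.5 times of 431 under the alternatives run (292 to 555), except 772 of 8736 single spots, 246 with array quality weights, 0 with signs as deposited, and 269 without DIM 1500 ppm replicate 2 (340 without replicate 1). Subtracting the mean dye component changes nothing by construction, since it cancels in the swap. The replicate block gave 417 features, 409 of them among the 431, and an adjusted p of 0.0513 for sod1. Deviations of same-numbered samples correlated between -0.60 and 0.46 over 15 pairs of diets, 6 of them above 0.1, so the numbers are not taken as pairs. All 431 features kept their sign in each of these fits of features. In most fits this was fixed in advance. Either the DIM 1500 ppm ratios stayed as they were, or 1 of 2 samples that share the sign was left out. Only uncentred arrays, scaled arrays, centred print blocks and the dye regression could have changed a sign. cyp1a3, not called, stood at -0.063 without replicate 1 and 0.34 without replicate 2. Against I3C at 1500 ppm, the count of 1 became 0 with scaled arrays, single spots, the dye regression, weights or signs as deposited, 2 in the fit of 24 arrays and with a replicate block, 3 in a fit of the compared diets alone and 0 to 1 without 1 sample. Against DIM at 500 ppm it became 3 in a fit of the compared diets alone. Against E2, the 20 became 0 with scaled arrays or signs as deposited, 1 with weights, 31 in the fit of 24 arrays and 0 to 31 without 1 sample; the replicate block left it at 20. The causes were not tested.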
